A study of Mus musculus with 10 samples.

Results

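The collagen genes of the mouse heart were followed in RNA-seq libraries from Prdm16 knockout and control animals. They were taken as every gene whose symbol has the form Col, a number, the letter a and a number, which gave 44 genes among the 46786 genes of the 3-month table and the same number among the 46977 genes of the 12-month table. Of these, 17 genes at 3 months and 21 at 12 months averaged at least 1 FPKM over the libraries of their table, and these are the genes described. FPKM, a fragment count scaled to transcript length and to the mapped fragments of the library, is an expression level. Hearts were dissected from knockout and control mice at 3 months (3 knockout and 3 control libraries) and at 12 months (2 knockout and 2 control libraries). The knocked-out gene, Prdm16, encodes a zinc-finger regulator of transcription. The labels name neither the allele nor a Cre driver or strain, so they do not say in which cells the gene was lost. The series title names an age-dependent enlargement and failure of the heart, and the comparison asked here was how collagen transcripts differed between knockout and control hearts at each age.

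Collagens are trimers of chains in which glycine recurs with a pair of other residues in between, which lets the chains wind into a triple helix. Fibrillar collagens (types I, III, V and XI here) build the tensile network between heart muscle cells, and cardiac fibroblasts make most of it. Basement membrane collagens (type IV and the related types XV and XVIII) form or border the thin sheet around muscle cells and capillaries. Beaded-filament collagen (type VI) links the basement membrane to the interstitial network. The remaining genes described here were Col8a1, a short-chain collagen of vessel walls, and Col14a1 and Col16a1, collagens that sit on the surface of fibrils.

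The difference between the classes can be read in the coding sequence. In the reference transcripts (GENCODE mouse release M21, build GRCm38), the longest unbroken run of glycine codons (GGN) at every such place was 337 to 344 codons in the 7 fibrillar genes described. The longest run was 30 to 66 in the 7 basement membrane genes, 42 to 87 in the 4 beaded genes and 32 to 61 in the 3 others. Fibrillar genes carry much of this run in coding exons of exactly 54 bases, of which they had 21 to 31, against 1 to 3 in the basement membrane genes and 2 to 3 in the beaded genes. Exons of that length are shown for the chains of types I and III, for Col5a2, which lies beside Col3a1, and for Col4a1 as a contrast, with the glycine codons in capitals.
Col3a1 exon: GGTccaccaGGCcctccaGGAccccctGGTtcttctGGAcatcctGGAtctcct
Col1a1 exon: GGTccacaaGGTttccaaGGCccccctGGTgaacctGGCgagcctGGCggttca
Col1a2 exon: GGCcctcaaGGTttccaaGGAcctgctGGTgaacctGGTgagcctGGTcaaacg
Col5a2 exon: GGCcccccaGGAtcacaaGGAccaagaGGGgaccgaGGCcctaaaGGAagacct
Col4a1 exon: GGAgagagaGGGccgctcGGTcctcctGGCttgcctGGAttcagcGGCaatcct
Each of these exons begins with a glycine codon, so it encodes whole repeats. The Col3a1 exon, coding exon 6, lies at chr1:45325360-45325413 on the plus strand, and the Col5a2 exon lies at chr1:45434892-45434945 on the minus strand. The Col1a1 exon lies at chr11:94939904-94939957 and the Col1a2 exon at chr6:4515481-4515534, both on the plus strand. The Col4a1 exon lies at chr8:11245211-11245264 on the minus strand. In Col4a1 the helix is broken at many places, and its longest run was 40 glycine codons, against 344 in Col3a1.

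Several collagen genes lie in pairs. Col4a1 (chr8:11198423-11312826, minus strand) and Col4a2 (chr8:11312805-11449287, plus strand), whose chains join in a single trimer, are read away from each other and their annotated ends overlap by 22 bases. Their transcript starts are 21 bases apart, so the promoter windows, 250 bases before to 50 bases after each start (RefSeq, GRCm38.p6), share 78 bases. The windows are shown because both genes were lower in the 12-month knockout libraries by nearly the same amount, with the shared stretch, chr8:11312777-11312854, in capitals.
Col4a1 promoter: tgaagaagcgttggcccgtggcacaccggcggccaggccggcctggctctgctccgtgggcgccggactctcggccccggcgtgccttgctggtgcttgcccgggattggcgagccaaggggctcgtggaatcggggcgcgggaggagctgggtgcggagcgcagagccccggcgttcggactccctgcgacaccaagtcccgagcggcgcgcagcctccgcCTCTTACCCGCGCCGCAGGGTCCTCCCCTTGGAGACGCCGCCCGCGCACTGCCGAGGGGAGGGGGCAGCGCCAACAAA
Col4a2 promoter: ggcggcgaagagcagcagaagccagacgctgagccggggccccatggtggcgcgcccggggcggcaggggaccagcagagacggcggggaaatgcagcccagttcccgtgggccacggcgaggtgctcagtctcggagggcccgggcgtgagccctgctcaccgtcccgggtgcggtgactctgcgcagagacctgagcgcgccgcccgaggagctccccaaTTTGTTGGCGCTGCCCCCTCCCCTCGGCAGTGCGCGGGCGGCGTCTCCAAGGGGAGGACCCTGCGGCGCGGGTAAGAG
The Col4a1 window is chr8:11312777-11313076 on the minus strand and the Col4a2 window is chr8:11312555-11312854 on the plus strand. The shared capitals are the same bases read from opposite strands. Col3a1 and Col5a2 lie tail to tail, 24614 bases apart. Col4a4 and Col4a3 lie head to head with 71 bases between them, and Col4a5 and Col4a6 with 1308.

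The windows of Col3a1, which had the most negative difference at 12 months, and of Col8a1, the one collagen gene described whose 12-month knockout libraries both lay above both controls, are shown for comparison. Capitals mark matches on either strand to the TATA box (TATAAA), the CCAAT box (by those letters) and the GC box (GGGCGG).
Col3a1 promoter: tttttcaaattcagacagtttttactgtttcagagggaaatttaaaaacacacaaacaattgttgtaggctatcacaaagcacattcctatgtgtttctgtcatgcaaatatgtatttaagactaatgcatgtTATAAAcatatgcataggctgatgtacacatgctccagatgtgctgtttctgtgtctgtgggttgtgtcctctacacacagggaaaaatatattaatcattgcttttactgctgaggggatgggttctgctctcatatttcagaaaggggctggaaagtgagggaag
Col8a1 promoter: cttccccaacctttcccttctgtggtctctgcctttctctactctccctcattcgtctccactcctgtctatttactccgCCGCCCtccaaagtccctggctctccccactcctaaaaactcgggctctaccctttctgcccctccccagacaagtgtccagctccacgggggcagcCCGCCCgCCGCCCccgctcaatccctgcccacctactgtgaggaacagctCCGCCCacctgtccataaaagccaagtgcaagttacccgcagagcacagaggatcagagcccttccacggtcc
The Col3a1 window, chr1:45311288-45311587 on the plus strand, held a TATA box match 117 bases before the start and no match to the other boxes. The Col8a1 window, chr16:57754688-57754987 on the minus strand, held 4 GC box matches, the nearest 23 bases before the start, and no match to the others. A promoter was found for 35 of the 44 collagen genes and for 17 of the 21 described. Among those 17, 12 held the GC box letters, 7 those of the CCAAT box, 2 those of the TATA box and 1 the AP-1 letters (TGANTCA). The shares over 32851 promoter windows were 35.7%, 37.4%, 13.6% and 7.81% in the same order. A collagen gene was counted if any of its windows held the letters, while the shares are per window. The counts and shares are therefore not in the same unit. Both strands were searched, and a base could count for more than 1 motif.

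Some properties of the libraries bear on every value below. Prdm16 itself averaged 1.41 ± 0.635 FPKM in knockout and 1.76 ± 0.417 in control libraries at 3 months (SD, n = 3 each), and 3.80 ± 0.309 in knockout and 5.68 ± 0.894 in control libraries at 12 months (SD, n = 2 each), neither a difference that passed the test. Heart muscle markers such as Myh6 and Tnnt2 were abundant in every library, while Ryr2 was listed at 0 in 3-month control library 2, against 20.7 to 29.1 FPKM in the other 5 libraries of that age. The 8 heart muscle markers summed to 31091 to 32132 FPKM in knockout and 24052 to 30168 in control libraries at 3 months, and 60937 to 61493 in knockout and 57351 to 57385 in control libraries at 12 months. At 12 months all genes summed to 1070020 and 1171100 FPKM in knockout and 890181 and 897425 in control libraries. Mitochondrial-genome transcripts made up 24.6% to 28.7% of this in knockout and 20.8% to 21.1% in control libraries. At 3 months they made up 23.8% to 24.9% in knockout and 17.3% to 42.0% in control libraries. At 12 months the X-inactivation transcript Xist was at most 0.0911 FPKM in the knockout libraries and at least 31.0 in the controls, and the Y-linked Ddx3y was at least 20.7 in the knockout libraries and at most 0.0352 in the controls. Genotype and sex therefore cannot be told apart at 12 months; at 3 months all 6 libraries had Ddx3y at 16.5 FPKM or more. The airway transcript Scgb1a1 was called lower at 3 months (0.205 ± 0.098 FPKM in knockout and 16.2 ± 9.20 in control libraries, SD, n = 3 each), and was listed at 0 in all 4 libraries of 12 months. The 2 ages came from different library preparations and separate tables, and each age was tested alone. The labels do not tie libraries to animals, and the p-values therefore cover only the variation among these libraries, which may be technical.

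The 12-month libraries differed in how alike they were. The controls lay close together, with a spread (robust SD of the log2 ratio over tested genes) of 0.113 and a median absolute difference of 0.03 among the collagen genes. The knockout libraries were further apart, at 0.416 over tested genes and 0.70 among the collagen genes, and knockout library 2 was the lower of the pair in 20 of 21 collagen genes, Col5a3 being the exception. At 3 months knockout library 2 stood apart from the other knockout libraries, with spreads of 0.284 and 0.314, against 0.145 between libraries 1 and 3.

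At 3 months the collagen genes of knockout hearts could not be separated from those of controls at this number of libraries. The knockout and control libraries overlapped in all 17 genes described, and 0 of 17 passed the test in either direction. The test was limma on log2(FPKM + 1) across all tested genes, with Benjamini-Hochberg adjustment and a call under an adjusted p of 0.05, and it called 91 of 12200 genes (0.746%), 0.623% higher and 0.123% lower in knockout. None of the 17 reached an unadjusted p of 0.05, which 2224 genes (18.2%) did, and the groups lay apart for 24.7% of tested genes, in 20.1% with knockout above and in 4.6% with knockout below. The median log2 difference, knockout minus control, was 0.01 over the collagen genes and 0.09 over all tested genes. In whole-heart RNA, fewer cells of a type and less RNA per cell cannot be told apart, here or at 12 months.

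**Figure D1:**
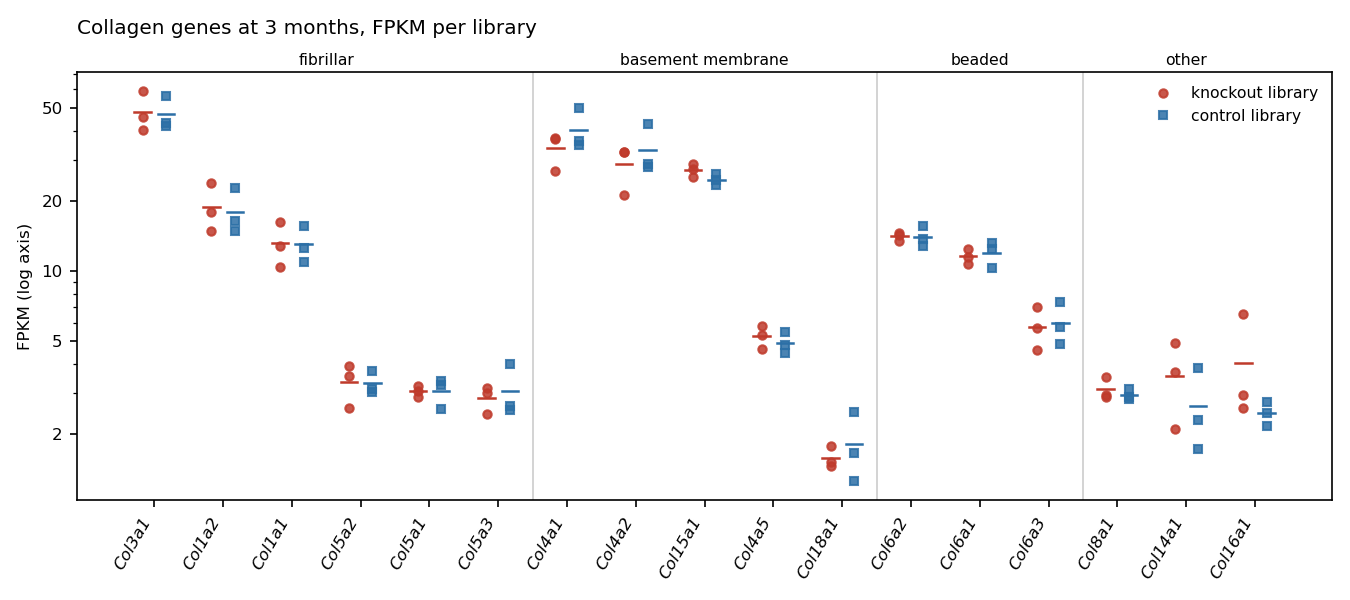
FPKM (log axis) of the 17 collagen genes described at 3 months, grouped by class, with 1 point per library (circles, 3 knockout; squares, 3 control) and a bar at each group mean. The groups overlap in every gene, and Col16a1 shows 1 knockout library, at 6.56 FPKM, above all others.

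Among the fibrillar genes at 3 months, Col3a1, the type III chain, was the most abundant. It had 40.1, 58.8 and 45.5 FPKM in knockout libraries, against 43.0, 41.7 and 56.4 FPKM in control libraries. Col1a1, the alpha 1 chain of type I collagen, had 10.5, 16.2 and 12.8 FPKM in knockout and 10.9, 12.6 and 15.6 in control libraries. Both genes covered the same range in knockout and control hearts. Col1a2, its partner chain, had 14.8, 23.9 and 17.9 FPKM in knockout and 14.9, 16.3 and 22.7 in control libraries. The log2 differences were 0.03 (SE 0.18) for Col3a1, 0.01 (SE 0.18) for Col1a1 and 0.06 (SE 0.20) for Col1a2. The 3 type V genes, whose chains start fibrils and set their width, lay between −0.06 and 0.01, and the fibrillar median was 0.01.

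The type IV chains of all basement membranes had the most negative values at 3 months. Col4a1 had 36.8, 26.7 and 37.3 FPKM in knockout and 36.1, 49.8 and 34.6 in control libraries, a log2 difference of −0.25 (SE 0.18; adjusted p = 0.497, limma with Benjamini-Hochberg). Col4a2 had 32.2, 21.2 and 32.5 FPKM in knockout and 28.7, 42.5 and 28.0 in control libraries, a difference of −0.20 (SE 0.21; adjusted p = 0.647, limma with Benjamini-Hochberg). In both genes 1 low knockout library and 1 high control library set the difference, and the other 4 values lay close together. Col15a1, a collagen at the outer face of the basement membrane, had 25.4, 28.8 and 27.5 FPKM in knockout and 23.5, 24.5 and 26.0 in control libraries, a difference of 0.14 (SE 0.11; adjusted p = 0.546, limma with Benjamini-Hochberg). Col4a5, from chromosome X, had 4.64, 5.83 and 5.32 FPKM in knockout and 4.84, 4.47 and 5.497 in control libraries.

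The type VI chains were close in both groups. Col6a1 had 10.7, 11.5 and 12.5 FPKM in knockout and 10.3, 13.2 and 12.5 in control libraries. Col6a2 had 13.5, 14.5 and 14.2 FPKM in knockout and 12.9, 15.5 and 13.7 in control libraries. Col6a3 had 6.99, 5.73 and 4.58 FPKM in knockout and 4.88, 5.75 and 7.34 in control libraries. Their log2 differences were −0.04, 0.01 and −0.05 in that order, with standard errors of 0.13, 0.12 and 0.18. The widest spread was in the fibril-surface collagens. Col16a1 had 2.59, 6.56 and 2.94 FPKM in knockout and 2.47, 2.74 and 2.18 in control libraries, which gave the largest collagen difference at 3 months, 0.46 (SE 0.26; adjusted p = 0.371, limma with Benjamini-Hochberg), and Col14a1 had 2.11, 4.92 and 3.69 FPKM in knockout and 2.31, 1.74 and 3.86 in control libraries (0.32, SE 0.27; adjusted p = 0.552). For both, knockout library 2, which stood apart from the rest, was the highest value. Col8a1 had 2.94, 2.90 and 3.53 FPKM in knockout and 3.14, 2.85 and 2.89 in control libraries.

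At 12 months most collagen genes were lower in the knockout libraries than in the controls, and Col6a3 fell by the test. The summed FPKM of the 44 genes was 536 and 336 in the knockout libraries and 1059 and 1042 in the controls. Both knockout libraries lay below both controls in 17 of 21 genes described, where 23.0% of the 13179 tested genes did. Col8a1 was the one gene of the 21 with both knockout libraries above both controls, where 27.3% of tested genes were (50.3% lay apart in either direction), and in Col4a3, Col11a2 and Col16a1 the groups overlapped. The median log2 difference was −0.95 over the 21 collagen genes, against 0.01 over all tested genes, and 20 of the 21 differences were negative. A log2 difference of −1 or below was seen in 9 of the 21, and in 1.92% of tested genes.

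The test itself called 1 of the 21, lower in knockout, where it called 30 genes (0.228%) lower and 22 (0.167%) higher, 0.395% in all. An unadjusted p under 0.05 was reached by 15 of the 21, among them Col8a1 with a positive difference, and by 13.6% of tested genes. Residual degrees of freedom were 2, and leaving out a library changed the count of collagen calls to 19 of 20 without knockout library 1, to 12 of 22 without knockout library 2, and to 0 without either control. Over all tested genes the same fits called 33.4%, 4.98%, 0% and 0%. With 1 library left in a group, its spread was assumed to be that of the remaining pair.

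**Figure D2:**
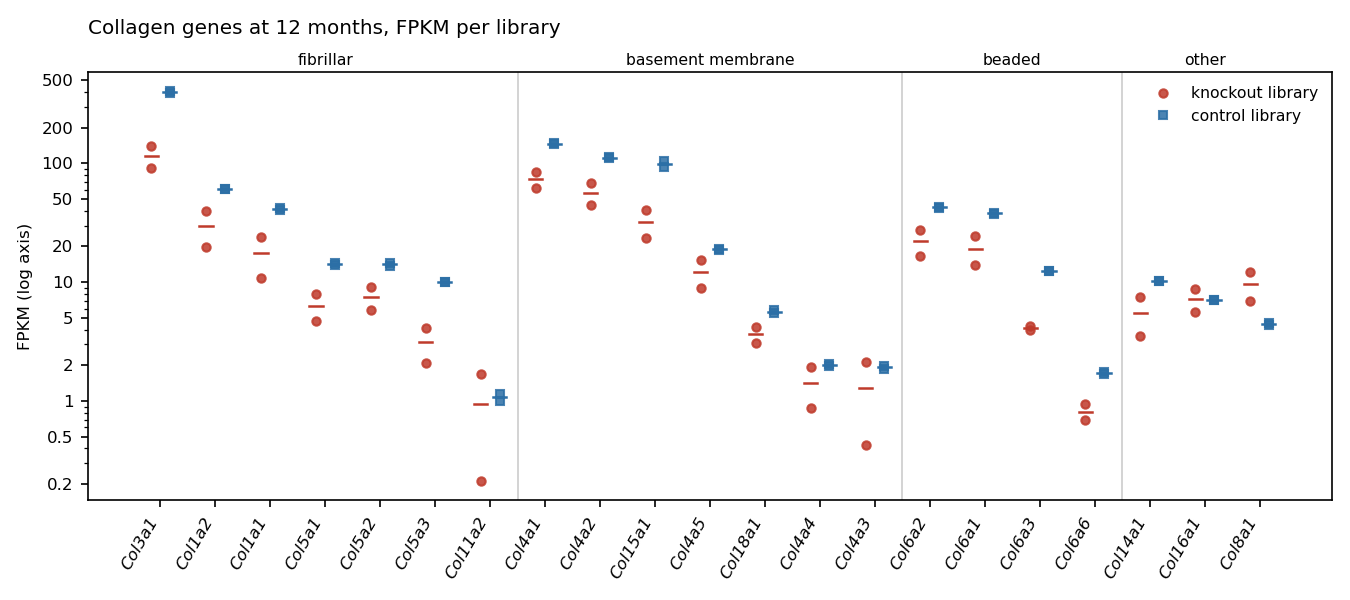
FPKM (log axis) of the 21 collagen genes described at 12 months, grouped by class, with 1 point per library (circles, 2 knockout; squares, 2 control) and a bar at each group mean. The control points nearly coincide, the knockout points lie below them in 17 genes, and Col8a1 shows both knockout points above.

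The fibrillar genes had a median log2 difference of −1.09, with 6 of 7 genes apart and lower in knockout. Col3a1 was the most abundant collagen gene in every 12-month library, and had 139.9 and 90.5 FPKM in the knockout libraries, against 402 and 392 FPKM in the controls. Its knockout minus control value of −1.81 (SE 0.24) was the most negative of the collagen genes and did not pass the test (limma, Benjamini-Hochberg adjusted p = 0.130). Col1a1 had 24.2 and 10.9 FPKM in knockout and 40.6 and 41.9 in control libraries, a difference of −1.28 (SE 0.39; adjusted p = 0.313, limma with Benjamini-Hochberg). The knockout libraries differed from each other by more than the controls did, and both lay under them. Col1a2 had 39.9 and 19.97 FPKM in knockout and 61.0 and 61.1 in control libraries, a difference of −1.08 (SE 0.35; adjusted p = 0.335).

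The type V genes showed the same order of groups. Col5a3, the least widespread of the type V chains, had 2.11 and 4.12 FPKM in knockout and 10.1 and 10.1 in control libraries, a difference of −1.48 (SE 0.27; adjusted p = 0.201, limma with Benjamini-Hochberg). It was the one collagen gene described in which knockout library 2 was the higher of the pair. Col5a1 had 8.04 and 4.68 FPKM in knockout and 14.0 and 14.6 in control libraries, and Col5a2 had 9.15 and 5.89 FPKM in knockout and 14.4 and 13.8 in control libraries. Their differences were −1.09 (SE 0.26) and −0.85 (SE 0.22). Col11a2, a cartilage-type fibrillar chain just above the level threshold, had 1.68 and 0.213 FPKM in knockout and 0.997 and 1.16 in control libraries. Its knockout values lay on either side of the controls.

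The basement membrane genes had a median of −0.64, with 6 of 7 genes apart and lower in knockout. Col4a1 had 85.2 and 61.9 FPKM in knockout and 145 and 148 in control libraries, a difference of −1.003 (SE 0.19; adjusted p = 0.204, limma with Benjamini-Hochberg). Col4a2 had 67.9 and 44.4 FPKM in knockout and 113 and 111 in control libraries, a difference of −1.01 (SE 0.23; adjusted p = 0.251, limma with Benjamini-Hochberg). Both genes of the head-to-head pair printed above were thus at about the same fraction of their control level, with ratios of group means of 0.502 and 0.501. This fraction was not particular to the pair, as genes on other chromosomes had similar ratios, among them Col1a2 (0.490) and Col6a1 (0.506). Col15a1 had 40.4 and 23.4 FPKM in knockout and 104 and 93.2 in control libraries, and its difference of −1.65 (SE 0.29) was next to that of Col3a1 in size (limma, Benjamini-Hochberg adjusted p = 0.189). Col18a1, the precursor of endostatin, had 4.17 and 3.10 FPKM in knockout and 5.85 and 5.47 in control libraries, a smaller difference of −0.53 (SE 0.16).

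The other type IV genes were less far from their controls. Col4a5 had 15.5 and 8.86 FPKM in knockout and 19.0 and 18.7 in control libraries, a difference of −0.64 (SE 0.28; adjusted p = 0.414, limma with Benjamini-Hochberg). Col4a4 had 1.95 and 0.870 FPKM in knockout and 1.99 and 2.07 in control libraries, so that the higher knockout value almost met the lower control. Col4a3, whose chain joins those of Col4a4 and Col4a5 in the trimer best known from the kidney filter, had 2.14 and 0.428 FPKM in knockout and 1.86 and 1.97 in control libraries. In this gene the groups overlapped.

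All 4 beaded-filament genes were apart and lower in knockout, with a median of −0.98. Col6a3, the large chain that completes the type VI trimer, had 4.29 and 4.00 FPKM in the knockout libraries and 12.4 and 12.4 in the controls. Its knockout values agreed more closely than those of any other fibrillar, basement membrane or beaded gene above 2 FPKM, and it fell by 1.38 on the log2 scale (SE 0.11; adjusted p = 0.0498, limma with Benjamini-Hochberg). That value lies just under the threshold. The call was kept with a pseudocount of 0.1, with median-of-ratios rescaling and as TPM (limma, Benjamini-Hochberg adjusted p from 0.0441 to 0.0487). It was lost under every other setting that kept all libraries, with adjusted p from 0.0522 to 0.136 by the same test. Among these, the adjusted p was 0.0557 without the genes of chromosomes X and Y. With a library left out, the difference of Col6a3 was −1.42 to −1.34. Col6a1 had 24.5 and 13.9 FPKM in knockout and 37.7 and 38.1 in control libraries, and Col6a2 had 27.8 and 16.7 FPKM in knockout and 42.4 and 43.0 in control libraries. Their differences were −0.998 (SE 0.29) and −0.95 (SE 0.26). Col6a6, a chain that can take the place of Col6a3 in the trimer, had 0.939 and 0.688 FPKM in knockout and 1.69 and 1.74 in control libraries, a difference of −0.59 (SE 0.17) on a scale that understates changes at so low a level.

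The 3 remaining genes did not share a direction. Col8a1 had 12.3 and 6.93 FPKM in knockout and 4.38 and 4.58 in control libraries, a difference of 0.90 (SE 0.28) that did not pass the test (limma, Benjamini-Hochberg adjusted p = 0.317). Both knockout libraries were above both controls, although they differed from each other. Col14a1 had 7.57 and 3.54 FPKM in knockout and 10.2 and 10.2 in control libraries, a difference of −0.85 (SE 0.34). Col16a1 had 8.73 and 5.62 FPKM in knockout and 7.14 and 7.10 in control libraries, a difference of −0.02 (SE 0.22).

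**Figure D3:**
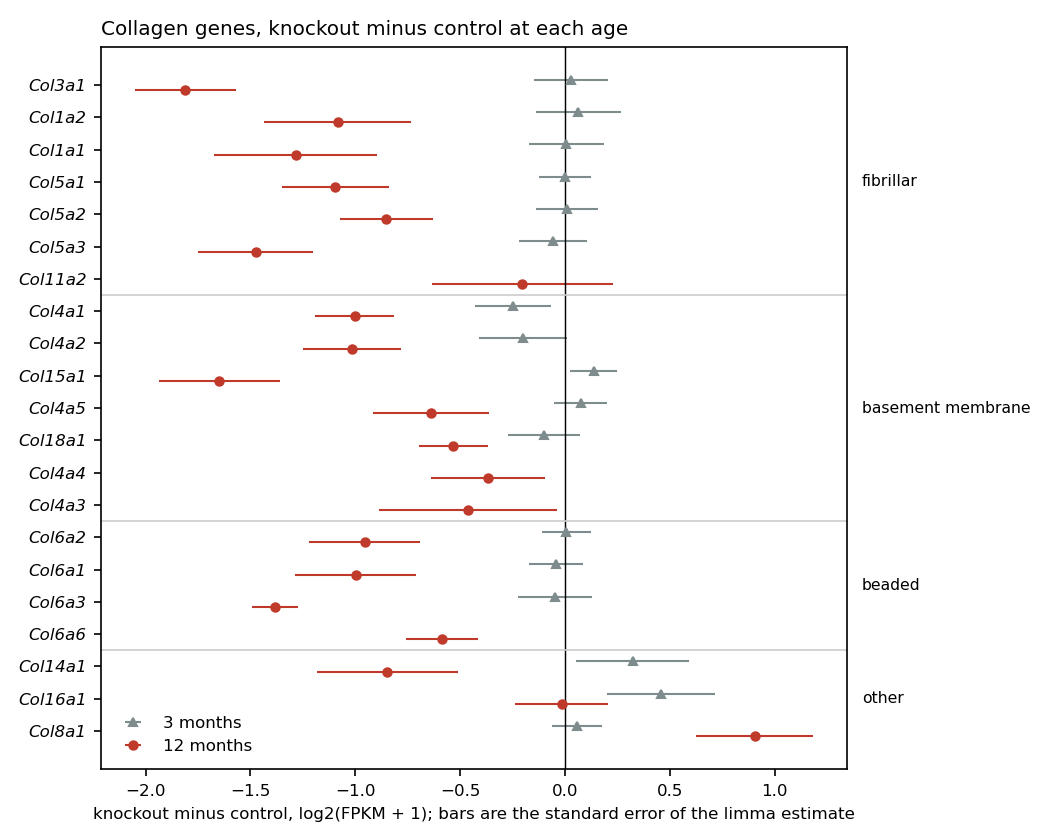
Knockout minus control on log2(FPKM + 1) for each collagen gene at 3 months (triangles) and 12 months (circles), with the standard error of the limma estimate as bars. The 3-month values lie between −0.25 and 0.46, and 20 of the 21 values of 12 months are below 0, with Col8a1 at 0.90.

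The difference between the ages was tested directly for the 17 genes described at both, as knockout minus control at 12 months less the same at 3 months, in a limma fit over all 10 libraries. It was negative in 16 of the 17 genes and past the threshold in 3, where 160 of 11580 tested genes (1.38%) were called and 0.725% were called with a more negative value at 12 months. The called genes were Col15a1 (−1.78, SE 0.27, Benjamini-Hochberg adjusted p = 0.0114), Col3a1 (−1.84, SE 0.31, adjusted p = 0.0172) and Col6a3 (−1.33, SE 0.25, adjusted p = 0.0321). Next by p were Col5a3 at −1.42 (adjusted p = 0.0564) and Col5a1 at −1.10 (adjusted p = 0.0739). Col8a1, the one gene with a positive value, was at 0.85 (adjusted p = 0.156). This fit shares its estimate of a gene's spread over all groups, although the 12-month knockout libraries lay further apart than the controls. For Col15a1 its SE of 0.27 was under the 0.29 of the fit of 12 months alone. In that fit neither Col15a1 nor Col3a1 was called. The median over the 17 genes was −0.96, against −0.08 over all genes tested. Without either 12-month control none of the 17 was called, while 11 were without 12-month knockout library 1 and 5 without knockout library 2. Library preparation, the sex-linked transcripts of the 12-month groups and age change together here and cannot be told apart.

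The proportions of the chains within each library also differed at 12 months. Fibrillar genes made up 42.2% and 40.7% of the summed collagen FPKM in the knockout libraries, against 51.5% and 51.5% in the controls. Col3a1 alone made up 26.1% and 26.9% in the knockout libraries and 38.0% and 37.6% in the controls. Col8a1 made up 2.29% and 2.06% in the knockout libraries and 0.413% and 0.440% in the controls. These shares were steady between knockout libraries whose collagen totals differed. The type I chains did not have a lower share in both knockout libraries. Col1a1 made up 4.52% and 3.25% in the knockout libraries and 3.83% and 4.03% in the controls. Col1a2 made up 7.44% and 5.94% in the knockout libraries and 5.76% and 5.86% in the controls. At 3 months fibrillar genes made up 34.4%, 44.4% and 36.6% in knockout and 36.8%, 32.8% and 42.3% in control libraries, which overlapped.

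Ratios between chains of a trimer differed from the controls by different amounts. The Col4a1 to Col4a2 ratio of FPKM was 1.25 and 1.40 in the knockout libraries and 1.29 and 1.33 in the controls at 12 months. The Col6a1 to Col6a2 ratio was 0.883 and 0.833 in the knockout libraries and 0.889 and 0.887 in the controls. Both ratios stayed near their control values while each gene was at about 0.5 of its control mean. The Col4a1 to Col4a2 values of the knockout libraries lay on either side of the controls. The Col6a1 to Col6a2 ratio was slightly lower in both knockout libraries. The Col6a1 to Col6a3 ratio was 5.71 and 3.47 in the knockout libraries and 3.03 and 3.08 in the controls, and so was higher in both knockout libraries. The Col1a1 to Col1a2 ratio was 0.607 and 0.548 in the knockout libraries and 0.665 and 0.686 in the controls. Chains of different collagen types were also set side by side. The Col3a1 to Col1a1 ratio was 5.78 and 8.28 in the knockout libraries and 9.92 and 9.35 in the controls. Shares and ratios are given as a description, since with 2 libraries against 2 the smallest two-sided exact permutation p is 0.333.

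**Figure D4:**
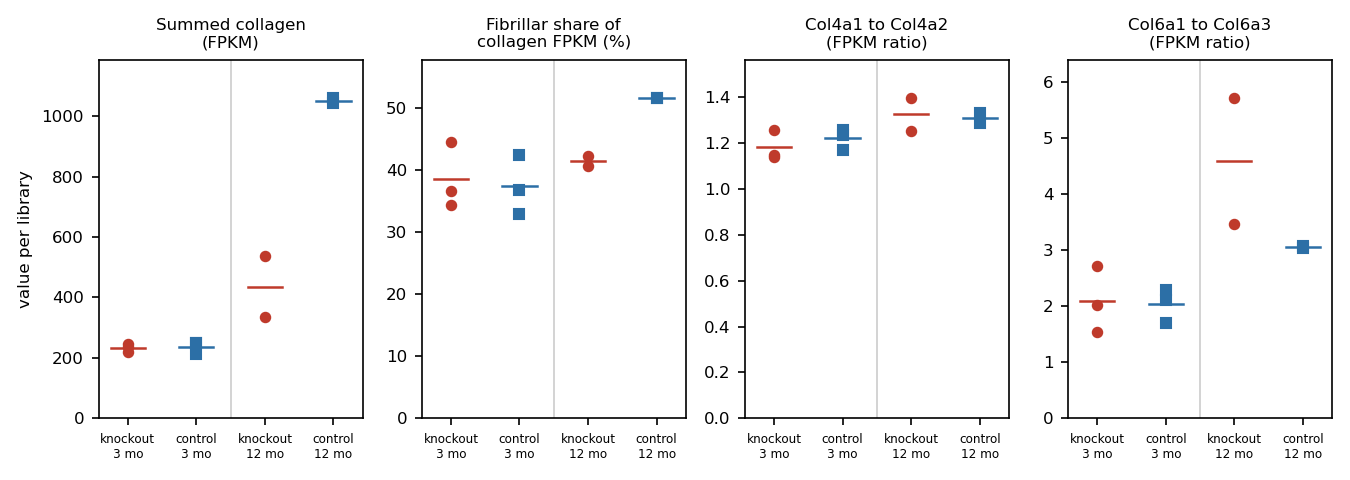
Summed collagen FPKM, the fibrillar share of it in percent, and the Col4a1 to Col4a2 and Col6a1 to Col6a3 FPKM ratios in each library (circles, knockout; squares, control), with a bar at each group mean and the ages apart since their tables were made separately. At 12 months the summed level and the fibrillar share are lower in both knockout libraries, while the Col4a1 to Col4a2 ratios overlap.

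Collagen genes under the level of 1 FPKM were 27 at 3 months and 23 at 12 months and were not tested. At 3 months Col10a1 and Col19a1 were listed at 0 in every library, and the knockout mean was lower in 10 of the others and higher in 15. At 12 months it was lower in 15 and higher in 8. Both 12-month knockout libraries lay below both controls in 7 of these 23 genes and above in 4. Among the tested genes, all of at least 1 FPKM, 23.0% lay below and 27.3% above. The shares over all genes under that level were not taken, so the counts are not a result about collagen genes. The genes nearest the threshold were Col18a1 (mean 1.70 FPKM) above it and Col6a6 (0.717) below it at 3 months, and Col11a2 (1.01) above it and Col4a6 (0.951) below it at 12 months.

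The genes that make, fold, trim and bind collagen included both lower and higher genes in the 12-month knockout libraries. Of 22 tested genes of collagen synthesis and folding, 0 were called, 5 had an unadjusted p under 0.05, and the median log2 difference was −0.05. Over all tested genes, 13.6% had such an unadjusted p. Serpinh1, the chaperone that binds the collagen triple helix in the endoplasmic reticulum, had 112 and 71.2 FPKM in knockout and 161 and 161 in control libraries, a difference of −0.84 (SE 0.25; adjusted p = 0.303, limma with Benjamini-Hochberg). P3h2, a prolyl 3-hydroxylase, had 3.00 and 3.86 FPKM in knockout and 1.81 and 1.46 in control libraries, a difference of 0.75 (SE 0.18; adjusted p = 0.253). These genes lay apart between the groups in opposite directions. Creb3l1, a regulator of collagen gene transcription, had a difference of −0.51 (adjusted p = 0.340). At 3 months the list also had 0 calls and a median of 0.24, with 7 of 22 at an unadjusted p under 0.05, against 18.2% of all tested genes. The genes of lowest p were then P4ha1 (0.43, adjusted p = 0.118) and P4hb (0.35, adjusted p = 0.204), the subunits of prolyl 4-hydroxylase, and Ppib (0.44, adjusted p = 0.177).

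Among 10 tested genes of propeptide trimming and cross-linking at 12 months, 0 were called and the median was −0.33. An unadjusted p under 0.05 was reached by 3, against 13.6% of all tested genes. Loxl2, a lysyl oxidase that cross-links collagen, averaged 3.40 ± 0.585 FPKM in knockout and 6.47 ± 0.067 in control libraries (SD, n = 2 each), a difference of −0.77. Adamts2, which removes the amino-terminal propeptide, had a difference of −0.76, and Tgm2, a transglutaminase, one of 0.76. Among 14 tested fibril-binding genes 0 were called and the median was −0.20. An unadjusted p under 0.05 was reached by 6, against the same 13.6% of all tested genes. Fn1, which encodes fibronectin, had 11.3 and 11.0 FPKM in knockout and 19.7 and 20.99 in control libraries, a difference of −0.81 (SE 0.11; adjusted p = 0.130, limma with Benjamini-Hochberg). The small proteoglycan genes Lum and Fmod had differences of −0.67 and −0.74. Of the 14, 8 had a negative and 6 a positive difference. The positive ones included 2 abundant small proteoglycan genes, Bgn (0.45) and Dcn (0.27), neither past the test.

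Of 10 tested genes of collagen breakdown and its inhibitors, 1 rose at 12 months. Timp4, an inhibitor of matrix metalloproteinases that is abundant in the heart, had 16.6 and 17.9 FPKM in knockout and 4.30 and 3.98 in control libraries, a difference of 1.83 (SE 0.11; adjusted p = 0.0303, limma with Benjamini-Hochberg). At 3 months Timp4 averaged 4.25 ± 1.26 FPKM in knockout and 4.07 ± 1.07 in control libraries (SD, n = 3 each). Mmp2, a gelatinase, had a 12-month difference of −0.73 and Timp3 one of 1.10, neither past the test, and the list's median was −0.20. Among 6 tested collagen receptors 0 were called and the median was −0.08. An unadjusted p under 0.05 was reached by 1 gene, against 13.6% of all tested genes. That gene was Adgrg1, an adhesion receptor for type III collagen (0.86, adjusted p = 0.161), and Lair1 and Ddr2 had differences of 0.28 and −0.26. At 3 months the last 4 lists had 0 calls as well, with 3, 1, 0 and 1 genes at an unadjusted p under 0.05. Tested then were 9, 13, 10 and 6 genes of these lists, and the share over all tested genes was 18.2%.

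**Figure D5:**
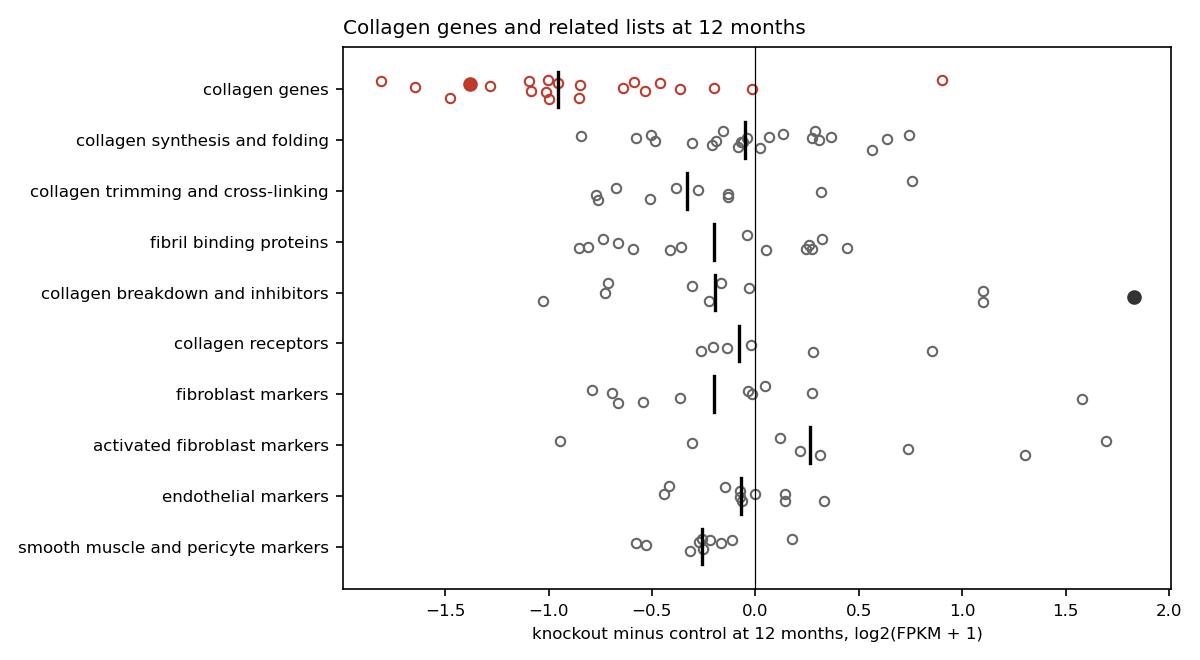
Knockout minus control at 12 months on log2(FPKM + 1) for the collagen genes and 9 related lists, with 1 point per tested gene (filled, called), spread vertically at random within a list, and a bar at the median. The collagen median of −0.95 lies to the left of the medians of those 9 lists, the epicardial (−1.11) and adipocyte (−1.93) marker lists are not plotted, and the filled points are Col6a3 and Timp4.

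Markers of the cells that make collagen were read beside these values. The 10 fibroblast markers, among them Pdgfra and Dcn, had 0 calls at 12 months and a median of −0.20. An unadjusted p under 0.05 was reached by 5 of the 10, against 13.6% of all tested genes. The summed level of the 10 markers was 1551 to 1695 FPKM in knockout and 1540.4 to 1550.3 in control libraries, most of it from Gsn and Dcn. Gsn had 872 and 812 FPKM in knockout and 853 and 846 in control libraries, and Dcn had 475 and 661 FPKM in knockout and 465 and 462 in control libraries. Pdgfra had 8.15 and 7.81 FPKM in knockout and 10.9 and 10.2 in control libraries, a difference of −0.36. Tcf21 had 6.91 and 8.93 FPKM in knockout and 12.6 and 11.3 in control libraries, a difference of −0.54. Of the 10, 7 had a negative difference, 5 had both knockout libraries below both controls and 2 had both above. Over all tested genes, 23.0% had both below and 27.3% both above. Lum (−0.67, adjusted p = 0.184) and Cd248 (−0.79, adjusted p = 0.184) were the markers of lowest p, followed by Dpep1 in the other direction. Dpep1 had 32.5 and 63.1 FPKM in knockout and 15.8 and 13.3 in control libraries, a difference of 1.58 (SE 0.35; adjusted p = 0.245, limma with Benjamini-Hochberg), and was not analysed here at 3 months. The 8 tested markers of activated fibroblasts also had 0 calls and a median of 0.26, and 3 had an unadjusted p under 0.05. Of the 8, 6 had a positive difference, 5 had both knockout libraries above both controls and 2 had both below. The shares over tested genes were again 27.3% above and 23.0% below. The list's sum was 181 to 197 FPKM in knockout and 258 to 261 in control libraries, most of it from Acta2. Acta2, smooth muscle actin, had a difference of −0.94, Ltbp2 one of 1.30 and Thbs4 one of 1.70. Acta2, abundant in vessels too, averaged 103 ± 13.4 FPKM in knockout and 198 ± 0.209 in control libraries (SD, n = 2 each).

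Other marker lists moved by different amounts at 12 months. The 10 endothelial markers had a median of −0.07 and a sum of 399 to 422 FPKM in knockout and 445 to 449 in control libraries, and the 10 smooth muscle and pericyte markers a median of −0.26 and a sum of 324 to 359 in knockout and 364 to 365 in control libraries, each with 0 calls. The 8 macrophage markers had a median of 0.28 and 0 calls. The 5 tested epicardial and mesothelial markers had a median of −1.11 with 0 calls, and the list's sum was 5.85 to 20.8 FPKM in knockout and 30.1 to 31.0 in control libraries. Among 6 tested adipocyte markers 2 fell, namely Ucp1 (listed at 0 in both knockout libraries, against 8.80 and 8.01 FPKM in the controls; adjusted p = 0.0130) and Plin1 (0.547 and 0.423 FPKM in knockout libraries, against 5.55 and 5.06 in the controls; adjusted p = 0.0410). The median of the adipocyte list was −1.93, with 5 of 6 lower, while its sum, mostly Fabp4, was 712 to 1368 FPKM in knockout and 631 to 638 in control libraries. The part of these lists in the collagen values was not tested. At 3 months these 6 lists of fibroblast, activated fibroblast, endothelial, mural, macrophage and epicardial markers had 0 calls each, with medians between −0.05 and 0.37.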

How the data were processed

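RNA from dissected mouse hearts was sequenced in 10 libraries. The authors deposited FPKM values in 1 table per age, with 1 column per library. Per the labels' protocols, poly(A) RNA of the 3-month hearts went into stranded libraries (NEBNext Ultra II Directional), while those of 12 months were made at the Genome Institute of Singapore. The submitters' processing notes name Cufflinks 2.1.1, STAR 2.5.1b, TopHat2 2.1.0, FastQC and the builds GRCm38 and mm10, without their roles. By its name, the table of 12 months leaves out outliers, by a rule that is not stated. The tables hold no counts, so no counting interval is given, and the number of libraries limits precision. Without strand, reads in the 22 bases where Col4a1 and Col4a2 overlap cannot be assigned.

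Repeated identifiers (69, at 3 months) were summed. Genes averaging at least 1 FPKM in a table were tested on log2(FPKM + 1) with limma 3.58.1 in R 4.3.3, as knockout minus control within each age, with a trend in the moderated spread and Benjamini-Hochberg adjustment over all tested genes; ages were compared with an interaction contrast over the genes tested at both. A fold on this scale understates changes of low genes. The pipeline was tested on simulated data. Python 3.11.15 was used for descriptions. Collagen members and gene lists were chosen with earlier results of these data known, so a list's count and median are descriptions and no list was tested. Named genes were all collagen genes described, with values per library, and, from each other list, called genes and up to 3 of lowest p. Some other genes of a list, abundant ones among them, were named as well. Identifiers were matched to GENCODE M21, which held 46297 of 46786 and 46484 of 46977 genes, and all 44 collagen genes in each table. Libraries were not treated as paired by replicate number, as same-numbered libraries did not deviate together. With so few libraries this cannot show that they were unpaired. Alternatives were other pseudocounts, filters, rescalings and moderation, a replicate block, no genes of chromosomes X and Y at 12 months, and each library left out.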

Additional observations from a re-analysis of the deposited data

Results flagged for a closer look

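In 3 collagen genes the knockout minus control difference at 12 months differed from that at 3 months by the test of the difference itself (limma over 10 libraries, Benjamini-Hochberg adjusted p under 0.05). The difference between ages was −1.84 on the log2 scale for Col3a1 (adjusted p = 0.0172), −1.78 for Col15a1 (adjusted p = 0.0114) and −1.33 for Col6a3 (adjusted p = 0.0321). The adjusted p ranged over the alternatives from 0.00230 to 0.110 for Col3a1 (under the threshold in 15 of 19), from 0.000210 to 0.0877 for Col15a1 (17 of 19) and from 0.0219 to 0.165 for Col6a3 (10 of 19). In all 3 genes the 3-month groups overlapped and both 12-month knockout libraries lay below both controls. The fit over 10 libraries shares its estimate of a gene's spread over all groups. In the fit of 12 months alone, Col3a1 and Col15a1 were not called. Whether preparation or sex-linked expression takes part was not tested.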

How the results depend on the processing

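At 3 months 0 collagen genes were called under every alternative run. Their median of 0.01 was −0.078 with median-of-ratios rescaling, −0.083 as TPM and −0.054 to 0.088 with a library left out. The difference of Col5a1 was −0.0012 with a pseudocount of 5. Median-of-ratios rescaling turned the uncalled 3-month differences of 8 genes negative: Col1a1 −0.092, Col6a2 −0.091, Col5a2 −0.073, Col3a1 −0.074, Col5a1 −0.078, Col1a2 −0.036, Col4a5 −0.012 and Col8a1 −0.023. Rescaling to TPM gave Col1a1 −0.094, Col6a2 −0.093, Col5a2 −0.079, Col3a1 −0.074, Col5a1 −0.088, Col1a2 −0.036, Col4a5 −0.011 and Col8a1 −0.024. With a library left out, 3-month values that changed sign ranged from −0.14 to 0.023 for Col6a1, −0.24 to 0.073 for Col18a1, −0.14 to 0.15 for Col1a1, −0.15 to 0.099 for Col5a3, −0.050 to 0.077 for Col6a2, −0.087 to 0.14 for Col5a2, −0.12 to 0.16 for Col3a1, −0.092 to 0.056 for Col5a1, −0.11 to 0.23 for Col1a2, −0.18 to 0.088 for Col6a3 and −0.014 to 0.094 for Col8a1.

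At 12 months the sign held in all collagen genes except, without knockout library 2, Col16a1 (−0.29 to 0.26 with a library left out), Col4a3 (−1.03 to 0.11) and Col11a2 (−0.26 to 0.37). Ddr2 ranged from −0.54 to 0.014. The collagen median was −0.21 with no filter on low values, where the added genes are those near 0 FPKM, and −1.27 to −0.59 with a library left out. The count of collagen calls was 0 with a pseudocount of 5, with no filter, with a mean of at least 5 FPKM, without a trend, with robust moderation and without the genes of chromosomes X and Y, and 0 to 19 with a library left out. As TPM the median of all genes at 12 months was −0.27, against a collagen median of −1.27. Counts over all genes were 10 (3 months) and 17 (12 months) with no filter, 33 at 12 months without chromosomes X and Y, and, with a library left out, 22 to 81 at 3 months, 0 to 4409 at 12 months and 40 to 787 for the difference between ages. Collagen genes called for that difference were 5 with a pseudocount of 5 and 0 to 11 with a library left out. The causes were not tested.

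Deviations of same-numbered libraries correlated at −0.121, −0.458 and −0.143 at 3 months and −0.0063 at 12 months. Such values cannot show whether libraries were paired, since deviations from the mean of so few libraries depend on each other. With a replicate block the calls were 29 at 3 months and 55 for the difference between ages, with 0 collagen genes called at 12 months and 1 for the difference between ages.

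The design limits these results. Residual degrees of freedom were 4 at 3 months and 2 at 12 months, so the spread of single genes is poorly known. Library sex differs with genotype at 12 months, and preparation differs with age.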
